A study of Mus musculus with 6 samples.

Results

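The 32 genes described here carry glucose through glycolysis to lactate or belong to the cell's response to low oxygen. They were taken by gene symbol from a list of glucose transport, glycolytic, hypoxia-inducible and hypoxia-sensing genes, with no measured value in the rule. The list itself was chosen with earlier results of these data known. All 32 were among the 17666 genes of the gene table, and all 32 passed the filter on low counts that left 13692 genes to test. RNA was sequenced from chondrocytes of newborn (P0) mice, sorted from knee joints as GFP-positive progenitors. By the growth protocol the cells were grown in DMEM until they matured, while the series design reads as RNA taken right after the sort. The 3 KO libraries came from Ppp1r15bPrx1;Rosa26mT/mG neonates, in which Prx1-Cre deletes Ppp1r15b, the gene of the eIF2alpha phosphatase subunit CReP. The 3 WT libraries came from Prx1-Cre;Rosa26mT/mG neonates, so Prx1-Cre and the reporter are shared by both groups. Prx1-Cre acts in limb bud mesenchyme, and the sort on GFP therefore takes descendants of that mesenchyme and not chondrocytes alone. Nothing in the labels ties a library to its own animal, culture or pool. Each p-value is therefore set against the variation among these libraries, and that variation may be technical.

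Glycolysis splits glucose into pyruvate, and lactate dehydrogenase turns pyruvate into lactate, which restores the NAD that the pathway needs and lets it run without oxygen. When oxygen is low, the transcription factor subunits HIF-1alpha and HIF-2alpha escape hydroxylation by the EGLN enzymes and destruction through the VHL protein, and with their partner ARNT they raise transcription of glycolytic enzymes and of genes that restrain mitochondria. Growth plate cartilage has no blood vessels, and its chondrocytes are known for living on glycolysis and for needing Hif1a to survive.

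Libraries held 18380880 to 19581607 estimated counts in KO and 18757808 to 19643951 in WT. Ppp1r15b was at 19.3, 23.5 and 27.5 CPM (counts scaled to library size) in KO replicates 1 to 3, against 86.8, 52.2 and 89.2 CPM in WT replicates 1 to 3, with no overlap of the groups. Cartilage markers were high in every library: the collagen gene Col2a1 lay between 25053 and 27050 CPM in KO and between 26817 and 35327 CPM in WT. KO replicate 3 stood apart from its own group. Across genes its log2 CPM gave r = 0.9346 and 0.9337 with KO replicates 1 and 2, while those libraries gave 0.9935 with each other. With WT replicates 1 to 3 it gave a higher r, at 0.9417, 0.9515 and 0.944. KO replicates 1 and 2 were likewise nearer to each WT library (0.939 to 0.965) than to KO replicate 3, and nearest to WT replicate 2. The members' fold changes are therefore given with all 6 libraries and without KO replicate 3.

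In KO replicates 1 and 2 most glycolytic and hypoxia-inducible genes lay well below every WT library, whereas KO replicate 3 lay in or above the WT range. In bulk RNA such a difference cannot be told apart as less RNA per cell or as fewer cells of a type. With all 6 libraries the edgeR quasi-likelihood test called 0 of the 32 members higher and 0 lower (Benjamini-Hochberg adjusted p under 0.05 over 13692 genes), where 2.51% of all tested genes were called, 0.884% higher and 1.63% lower. At an unadjusted p under 0.05 there were 5 members of 32, against 19.2% of all tested genes. DESeq2 called 2 members lower, Pfkfb3 (adjusted p = 0.00174) and Aldoc (adjusted p = 0.0497), and 0 higher, where it called 4.92% of all tested genes lower and 3.63% higher, and limma-voom called 0. Without KO replicate 3, 25 members fell, 2 rose and 5 did not pass, where 16.1% of all genes tested in that fit fell and 12.5% rose. The median log2 fold change of the members was -0.29 with all libraries and -0.58 without KO replicate 3, and over all tested genes these medians were 0.0051 and -0.00012. The fit without KO replicate 3 rests on 2 KO libraries that resemble each other closely, with a common dispersion of 0.00829 against 0.0525 with all 6. KO replicate 3 was left out because of its values in these same data. The smaller standard errors of that fit and its adjusted p-values depend on this choice.

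The pattern across libraries was shared by most members. In 22 of 32, KO replicates 1 and 2 were both below all WT libraries and KO replicate 3 was within or above the WT range, where 15.3% of all tested genes did so. Of these 22, KO replicate 3 was above all WT libraries in 15 members (9.68% of all tested genes) and within the WT range in 7 (5.61%). Without regard to KO replicate 3, KO replicates 1 and 2 were below all WT libraries in 27 members (29.8% of all tested genes) and above them in 2, Eno2 and Vhl (27.3%). KO replicate 3 was above all WT libraries in 17 members, where it was in 39.7% of all tested genes. In 29 of 32 KO replicate 3 was above KO replicates 1 and 2, where 44.9% of all tested genes did so, and its level was 0.717 to 3.87 times their mean with a median of 1.76 times. In 5 members all KO libraries were below all WT libraries (Pfkfb3, Aldoc, Tpi1, Pdk1 and Hif1a), a share close to the 14.5% of all tested genes, and in 1 (Eno2) all were above, where 14.0% of all tested genes were. The higher of KO replicates 1 and 2 was 1.01 to 1.31 times the lower. The highest WT library was 1.04 to 2.00 times the lowest, with a median of 1.13 times.

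**Figure D1:**
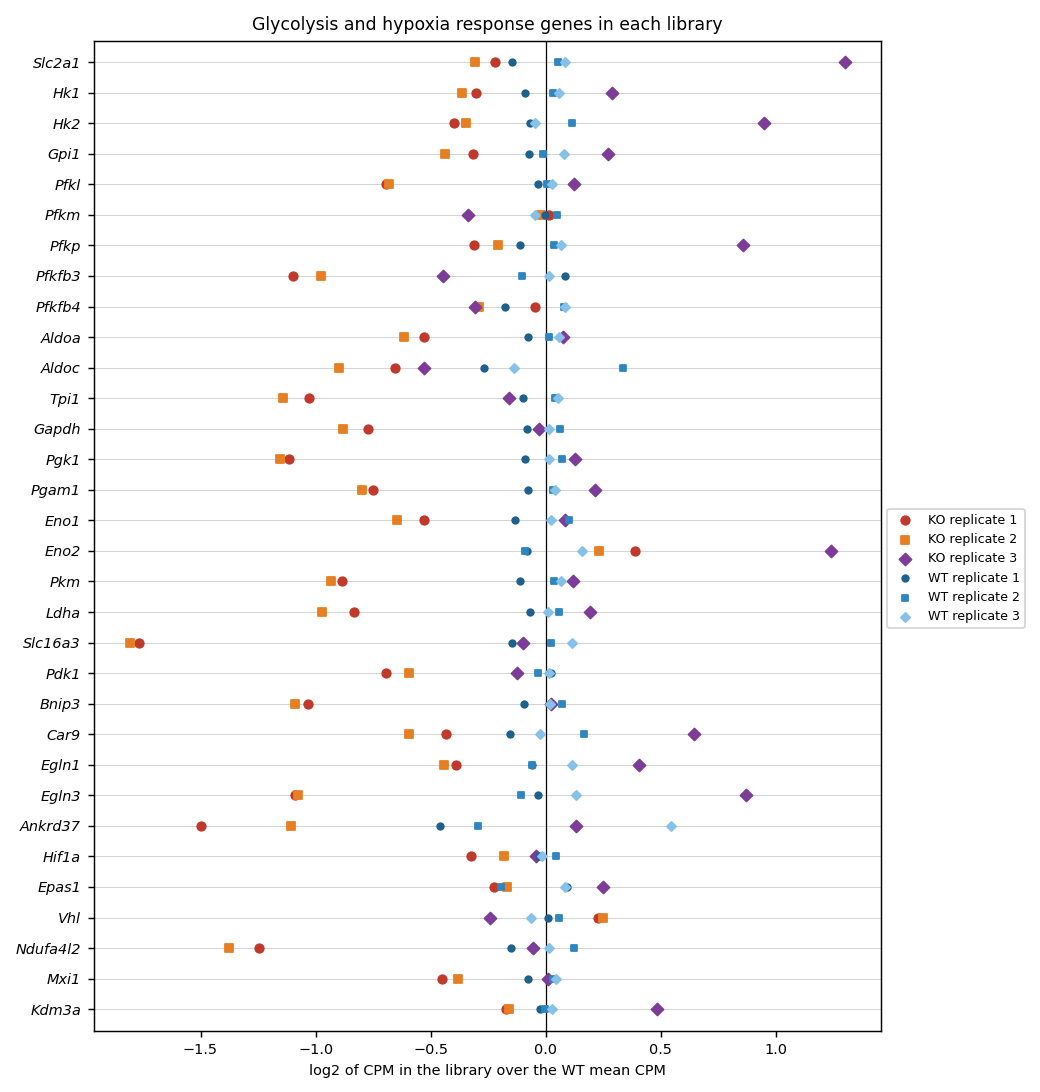
Level of each of the 32 members in each library, as log2 of its CPM over the WT mean CPM (x axis), KO libraries in red, orange and purple and WT libraries in blue. KO replicates 1 and 2 lie left of all WT points in 27 members, and KO replicate 3 lies right of all WT points in 17.

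The abundant enzymes followed this pattern in sum. The deposited TPM values (transcript abundance scaled for length and depth, and so comparable between genes) of 9 enzymes, one isoenzyme for each step from glucose 6-phosphate isomerase to lactate dehydrogenase without phosphofructokinase, summed to 11232, 10898 and 20174 TPM in KO replicates 1 to 3, against 17918, 18792 and 19356 TPM in WT replicates 1 to 3. That is 1.12%, 1.09% and 2.02% of all transcripts in KO and 1.79%, 1.88% and 1.94% in WT. In this sum KO replicates 1 and 2 were thus below and KO replicate 3 above every WT library. These 9 were chosen after their values were seen. In WT the order by TPM was Gapdh (6849 ± 196), Eno1 (3033 ± 180), Aldoa (2290 ± 113), Pkm (1798 ± 106), Ldha (1488 ± 36.6), Tpi1 (1039 ± 52.3), Pgk1 (972 ± 35.5), Pgam1 (808 ± 31.7) and Gpi1 (412 ± 25.0), where values are means ± SD with n = 3. Of neighbours in this order, only Tpi1 and Pgk1 were closer together than the sum of their SDs.

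**Figure D2:**
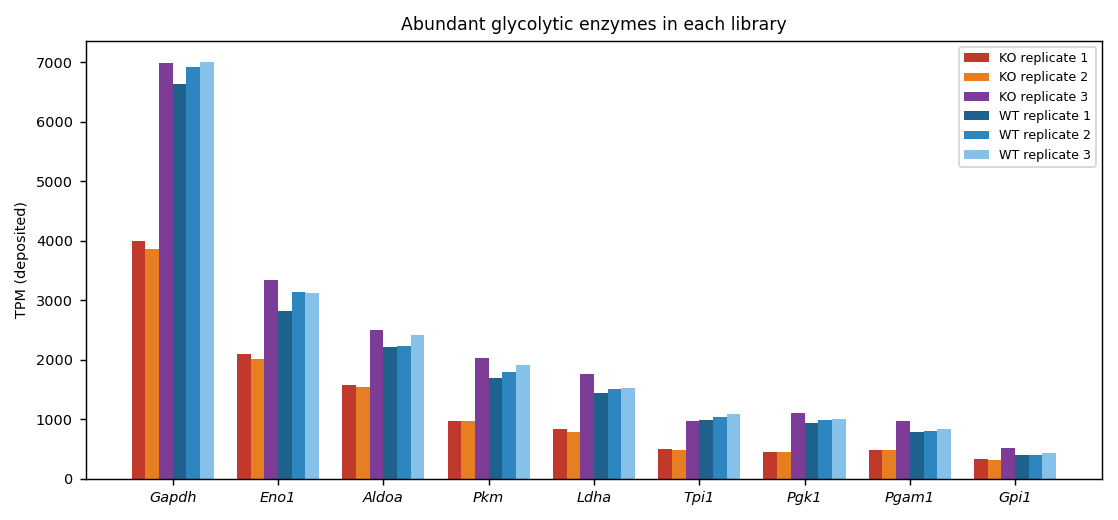
Deposited TPM of 9 abundant glycolytic enzymes (y axis) in each library, one bar per library. The bars of KO replicates 1 and 2 are the lowest for every gene, while those of KO replicate 3 reach the lowest WT bar or pass it for every gene but Tpi1.

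The path begins with glucose entry. Slc2a1, which encodes the glucose transporter GLUT1, was at 148, 140 and 427 CPM in KO replicates 1 to 3, against 156, 180 and 184 CPM in WT replicates 1 to 3. KO replicate 3 was far above every other library and KO replicates 1 and 2 were just below the WT range. The log2 fold change was 0.46 (SE 0.444, edgeR adjusted p = 0.634) with all libraries, and without KO replicate 3 Slc2a1 fell by 0.26 on the log2 scale (SE 0.0788, edgeR adjusted p = 0.0427). Hk2, the hexokinase that is inducible and binds mitochondria, had 32.5, 33.7 and 82.8 CPM in KO and 40.8, 46.4 and 41.4 CPM in WT. Again KO replicate 3 stood above and KO replicates 1 and 2 below all WT libraries, with an estimate over all libraries of 0.21 on the log2 scale (SE 0.374, edgeR adjusted p = 0.813) and a fall of -0.37 without KO replicate 3 (SE 0.071, edgeR adjusted p = 0.00782). The more abundant Hk1 had a log2 fold change of -0.10 with all libraries (edgeR adjusted p = 0.833) and fell by 0.33 without KO replicate 3 (edgeR adjusted p = 0.00794). Of the summed TPM of both hexokinases, Hk2 held 16.4%, 17.1% and 24.4% in KO replicates 1 to 3, against 17.0%, 17.9% and 15.8% in WT replicates 1 to 3. Gpi1, which turns glucose 6-phosphate into fructose 6-phosphate, had 80.4%, 73.7% and 121% of the WT mean CPM in KO replicates 1 to 3. Its log2 fold change was -0.13 with all libraries (edgeR adjusted p = 0.781), and it fell by 0.37 without KO replicate 3 (edgeR adjusted p = 0.00664).

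Phosphofructokinase commits the sugar to glycolysis, and of its 3 genes Pfkl and Pfkp had the same order of libraries while Pfkm had another. Pfkp, the platelet-type subunit, was at 55.1, 59.2 and 124 CPM in KO, against 63.3, 70.2 and 71.7 CPM in WT. The highest library was KO replicate 3, and over all libraries the estimate was 0.21 on the log2 scale (SE 0.317, edgeR adjusted p = 0.772). Without KO replicate 3 Pfkp fell by 0.26 (edgeR adjusted p = 0.0362). The liver-type Pfkl was at 140, 141 and 246 CPM in KO, against 221, 226 and 230 CPM in WT, so for both genes KO replicate 3 was above and KO replicates 1 and 2 were below all WT libraries. For Pfkl the estimate was -0.36 over all libraries (edgeR adjusted p = 0.453), and it fell by 0.68 without KO replicate 3 (edgeR adjusted p = 0.000156). The muscle-type Pfkm had 61.2, 59.8 and 48.0 CPM in KO and 60.5, 62.7 and 58.7 CPM in WT, so that KO replicates 1 and 2 sat within the WT range and KO replicate 3 below it. Pfkm did not pass with all libraries (-0.11, edgeR adjusted p = 0.646) or without KO replicate 3 (5.85e-06, edgeR adjusted p = 1). Of the summed TPM of the 3 genes, Pfkl held 53.2%, 53.3% and 58.4% in KO and 62.4%, 61.8% and 62.8% in WT. The share of Pfkm was 26.3%, 25.7% and 13.1% in KO and 19.6%, 19.3% and 18.1% in WT. Every KO library thus had a smaller share of Pfkl than every WT library, while the share of Pfkm was above the WT range in KO replicates 1 and 2 and below it in KO replicate 3.

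Pfkfb3 makes fructose 2,6-bisphosphate, the strongest activator of phosphofructokinase, and is a known hypoxia-inducible gene. Its level was 42.2, 46.0 and 66.4 CPM in KO replicates 1 to 3, against 95.8, 84.2 and 91.2 CPM in WT replicates 1 to 3. All KO libraries were below all WT libraries, KO replicate 3 included. Over all libraries its estimate of -0.81 on the log2 scale (SE 0.179) gave the smallest p among the 32 members but did not pass the threshold (edgeR adjusted p = 0.0777). It fell by 1.03 without KO replicate 3 (SE 0.0818, edgeR adjusted p = 0.000171). Its relative Pfkfb4 was low, at 9.29, 7.84 and 7.76 CPM in KO and 8.49, 10.1 and 10.2 CPM in WT, and did not pass with all libraries (-0.21, edgeR adjusted p = 0.496) or without KO replicate 3 (-0.16, edgeR adjusted p = 0.429).

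The enzymes of the lower part of the path, which turn fructose 1,6-bisphosphate into pyruvate, varied together. Aldoa, the aldolase of most tissues, had 1050, 988 and 1596 CPM in KO, against 1437, 1532 and 1580 CPM in WT. Tpi1, which interconverts the 2 triose phosphates, had 360, 333 and 658 CPM in KO, against 686, 756 and 762 CPM in WT. All KO libraries were below WT for Tpi1, whereas for Aldoa KO replicate 3 was the highest of the 6 libraries. The log2 fold changes were -0.32 for Aldoa (SE 0.198, edgeR adjusted p = 0.435) and -0.71 for Tpi1 (SE 0.268, edgeR adjusted p = 0.23). Without KO replicate 3 Aldoa fell by 0.57 (SE 0.0669, edgeR adjusted p = 0.00095) and Tpi1 by 1.08 (SE 0.0709, edgeR adjusted p = 0.000102).

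Gapdh, the dehydrogenase often taken as a reference gene for equal loading, was at 2442, 2268 and 4093 CPM in KO replicates 1 to 3, against 3950, 4359 and 4221 CPM in WT replicates 1 to 3. KO replicates 1 and 2 held 58.5% and 54.3% of the WT mean and KO replicate 3 held 98%. Over all libraries the estimate was -0.51 on the log2 scale (SE 0.245, edgeR adjusted p = 0.324), and without KO replicate 3 Gapdh fell by 0.82 (SE 0.0723, edgeR adjusted p = 0.000279). Pgk1, the first ATP-forming enzyme of the path, had 363, 354 and 860 CPM in KO, against 739, 827 and 796 CPM in WT. Of all libraries KO replicate 3 was the highest and KO replicates 1 and 2 the lowest. Its log2 fold change was -0.58 (SE 0.359, edgeR adjusted p = 0.438), and without KO replicate 3 it fell by 1.13 (SE 0.0649, edgeR adjusted p = 6.5e-05). Pgam1, the phosphoglycerate mutase of most tissues, had 391, 378 and 761 CPM in KO and 623, 671 and 676 CPM in WT, again with KO replicate 3 highest and KO replicates 1 and 2 lowest. Its log2 fold change was -0.37 (SE 0.282, edgeR adjusted p = 0.542) and, without KO replicate 3, -0.77 (SE 0.0607, edgeR adjusted p = 0.000169).

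The enolases differed in direction. Eno1, the main form, had 1657, 1525 and 2532 CPM in KO, against 2180, 2560 and 2429 CPM in WT, and KO replicate 3 lay within the WT range. Its estimate over all libraries was -0.33 (SE 0.213, edgeR adjusted p = 0.466), and without KO replicate 3 Eno1 fell by 0.58 (SE 0.0822, edgeR adjusted p = 0.00207). Eno2, the form known from neurons, had 46.6, 41.7 and 84.0 CPM in KO, against 33.7, 33.4 and 39.7 CPM in WT. All KO libraries were above all WT libraries, KO replicate 3 by the widest margin. With all libraries the estimate was 0.69 (SE 0.274, edgeR adjusted p = 0.248), and without KO replicate 3 Eno2 rose by 0.31 (SE 0.0937, edgeR adjusted p = 0.0409). Its share of the summed enolase TPM was 1.76%, 1.75% and 2.13% in KO and 0.982%, 0.854% and 1.05% in WT, so the groups did not overlap. Aldoc, the brain-type aldolase, held 0.483%, 0.435% and 0.348% of aldolase TPM in KO, against 0.462%, 0.660% and 0.460% in WT. Its log2 fold change was -0.68 with all libraries (edgeR adjusted p = 0.143), and it fell by 0.76 without KO replicate 3 (edgeR adjusted p = 0.0213).

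Pkm, the pyruvate kinase gene, had 1059, 1024 and 2124 CPM in KO replicates 1 to 3, against 1812, 2008 and 2049 CPM in WT replicates 1 to 3. The level of Pkm was 54.1% and 52.3% of the WT mean in KO replicates 1 and 2, and KO replicate 3 was the highest of all libraries. The log2 fold change was -0.48 (SE 0.30, edgeR adjusted p = 0.447), and without KO replicate 3 Pkm fell by 0.91 (SE 0.0725, edgeR adjusted p = 0.000177). Its locus, bases 59656576 to 59679372 of chromosome 9 (GRCm38.p6), makes an M1 and an M2 enzyme by using one or the other of a pair of alternative exons. M1 is known from muscle and brain, and M2 from growing cells. In the annotation of the same build the M1 exon is at chr9:59675029-59675195 and the M2 exon at chr9:59675568-59675734, both on the plus strand, both exon 9 of their transcripts and both 167 bases long. They are 61.7% identical, and the 64 bases that differ are in capitals below, because these bases are what lets reads be told apart between the forms:
Pkm M1 exon: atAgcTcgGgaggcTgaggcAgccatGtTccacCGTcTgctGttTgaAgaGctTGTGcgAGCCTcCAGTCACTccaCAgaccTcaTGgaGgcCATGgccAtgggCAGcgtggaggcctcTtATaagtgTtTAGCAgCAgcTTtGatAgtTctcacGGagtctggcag
Pkm M2 exon: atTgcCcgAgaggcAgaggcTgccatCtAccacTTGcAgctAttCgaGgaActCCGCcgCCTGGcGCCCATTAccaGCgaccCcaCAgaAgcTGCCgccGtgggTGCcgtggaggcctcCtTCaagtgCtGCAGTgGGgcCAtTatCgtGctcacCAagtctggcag

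The M1 transcript held 7.48%, 8.29% and 11% of Pkm estimated counts in KO replicates 1 to 3, against 11.2%, 10.1% and 11.2% in WT replicates 1 to 3. KO replicates 1 and 2 were below all WT libraries and KO replicate 3 was within their range. The means were 8.94 ± 1.87% in KO and 10.8 ± 0.647% in WT (SD, n = 3 each), and the exact two-sided permutation test gave p = 0.2 (this design cannot go below 0.1). The M2 transcript held most of the remainder in every library, with 17630, 16847 and 37651 estimated counts in KO and 31231, 32781 and 33755 in WT. Skeletal muscle markers, whose sums are given with the marker lists, were also lower in KO replicates 1 and 2 than in any WT library. Their part in the M1 share was not tested.

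Ldha, which makes lactate from pyruvate, was at 599, 543 and 1220 CPM in KO, against 1017, 1112 and 1073 CPM in WT. KO replicate 3 was above and KO replicates 1 and 2 were below every WT library. For Ldha the log2 fold change was -0.44 (SE 0.315, edgeR adjusted p = 0.509), and without KO replicate 3 Ldha fell by 0.90 (SE 0.0689, edgeR adjusted p = 0.000153). Slc16a3, which encodes the lactate exporter MCT4 and is a known HIF-1 target, was at 48.5, 47.1 and 154 CPM in KO, against 149, 167 and 178 CPM in WT. Its level in KO replicates 1 and 2 was 29.4% and 28.5% of the WT mean, the lowest of any member in those libraries, and in KO replicate 3 it was 93.3%. Over all libraries its log2 fold change was -0.99 (SE 0.479, edgeR adjusted p = 0.329), and without KO replicate 3 it fell by 1.78 (SE 0.0869, edgeR adjusted p = 4.29e-05). Pdk1, the kinase that shuts pyruvate out of mitochondria, had 61.9%, 66.3% and 91.6% of the WT mean CPM in KO replicates 1 to 3. It fell by 0.64 without KO replicate 3 (edgeR adjusted p = 0.000469), while its log2 fold change of -0.45 over all libraries did not pass (edgeR adjusted p = 0.193).

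**Figure D3:**
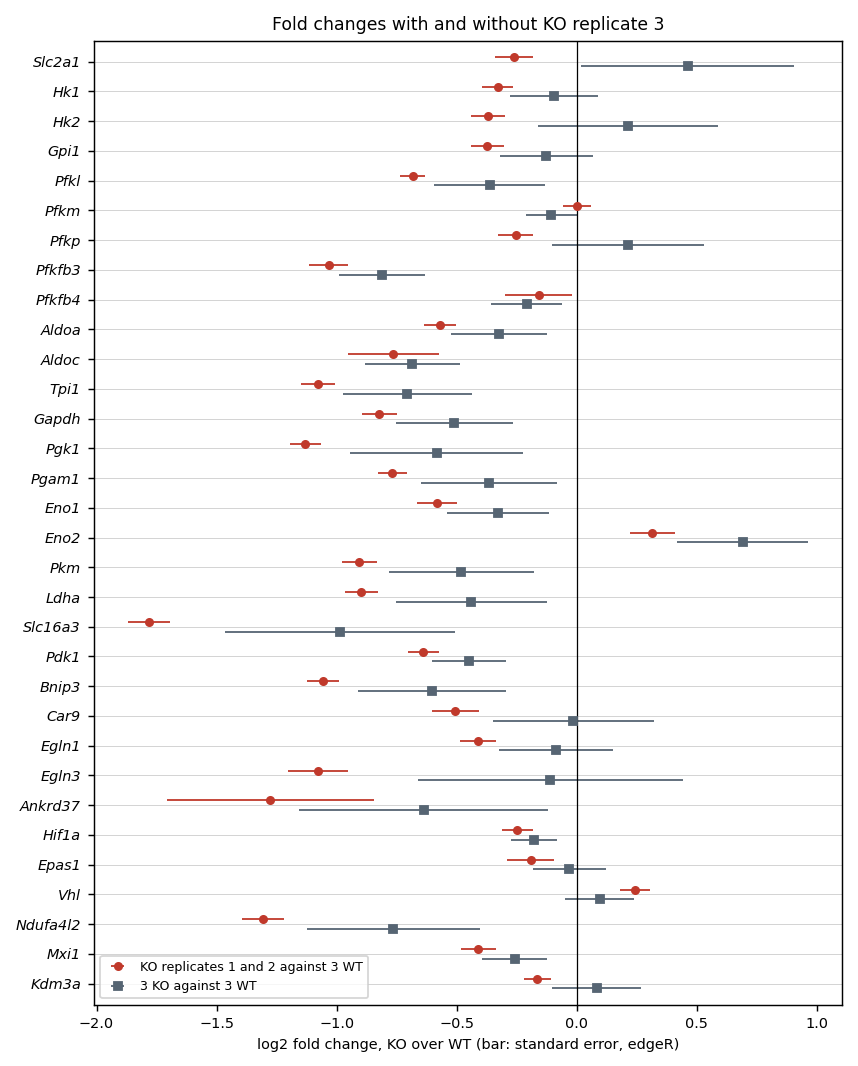
Log2 fold change of each member, KO over WT (x axis), from edgeR fits of KO replicates 1 and 2 against 3 WT libraries (circles) and of 3 KO against 3 WT libraries (squares), with bars of 1 standard error. Without KO replicate 3 all but 3 members lie below 0, down to -1.78 for Slc16a3, and the bars are shorter for every member.

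Most hypoxia-inducible genes outside glycolysis followed the same order of libraries. Ndufa4l2, a mitochondrial protein gene that HIF-1 induces and that lowers respiratory chain activity, was at 98.1, 89.6 and 224 CPM in KO, against 210, 254 and 235 CPM in WT. KO replicate 3 was in the WT range and the other KO libraries were far below it. The log2 fold change was -0.76 (SE 0.36, edgeR adjusted p = 0.317), and without KO replicate 3 Ndufa4l2 fell by 1.31 (SE 0.0882, edgeR adjusted p = 0.000105). Bnip3, a mitophagy receptor, was at 48.9%, 47.0% and 102% of the WT mean in KO replicates 1 to 3. Its estimate was -0.60 over all libraries (edgeR adjusted p = 0.351), and it fell by 1.06 without KO replicate 3 (SE 0.0662, edgeR adjusted p = 8.4e-05). Car9, the cell surface carbonic anhydrase that exports acid, fell by 0.51 and the MYC antagonist Mxi1 by 0.41 without KO replicate 3 (edgeR adjusted p = 0.00806 and 0.0052). In KO replicate 3 Car9 was at 156% and Mxi1 at 101% of the WT mean, and over all libraries their estimates were -0.01 and -0.26 (edgeR adjusted p = 0.991 and 0.367). Kdm3a, a histone demethylase, was at 88.7%, 89.4% and 140% of the WT mean in KO replicates 1 to 3 and did not pass with all libraries (0.08, edgeR adjusted p = 0.86) or without KO replicate 3 (-0.16, edgeR adjusted p = 0.0616). Ankrd37 had 10 to 34 counts in KO libraries and 22 to 42 in WT libraries, with overlapping groups, and neither its estimate of -0.64 over all libraries (edgeR adjusted p = 0.563) nor that of -1.28 without KO replicate 3 (edgeR adjusted p = 0.0613) passed.

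Among the genes that sense oxygen, Egln3 and Egln1, 2 HIF prolyl hydroxylases that HIF itself induces, had KO replicates 1 and 2 below and KO replicate 3 above all WT libraries, while the HIF subunit genes Hif1a and Epas1 did not. Egln3 was at 6.14, 6.20 and 23.9 CPM in KO, against 12.8, 12.1 and 14.3 CPM in WT. KO replicate 3 was 3.87 times the mean of KO replicates 1 and 2, the widest such gap among the members. Its log2 fold change was -0.11 (SE 0.552, edgeR adjusted p = 0.942) over all libraries, and it fell by 1.08 without KO replicate 3 (SE 0.124, edgeR adjusted p = 0.000886). Egln1 was at 68.2, 65.9 and 118 CPM in KO, against 85.7, 85.8 and 96.7 CPM in WT, so KO replicate 3 lay above and the other KO libraries below all WT libraries. For Egln1 the log2 fold change was -0.09 (SE 0.236, edgeR adjusted p = 0.887), and it fell by 0.41 without KO replicate 3 (SE 0.075, edgeR adjusted p = 0.00622).

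Hif1a, which encodes HIF-1alpha, had 406, 449 and 495 CPM in KO and 498, 525 and 504 CPM in WT. All KO libraries were below all WT libraries, by little for KO replicate 3. Hif1a had a fold change of -0.18 on the log2 scale (SE 0.0941, edgeR adjusted p = 0.368), and without KO replicate 3 it fell by 0.25 (SE 0.0635, edgeR adjusted p = 0.024). Epas1, which encodes HIF-2alpha, had 41.0, 42.7 and 56.9 CPM in KO, against 51.1, 41.9 and 50.7 CPM in WT. The groups overlapped, and neither the estimate of -0.03 over all libraries (SE 0.153, edgeR adjusted p = 0.941) nor that of -0.19 without KO replicate 3 (SE 0.0974, edgeR adjusted p = 0.18) passed. Vhl, the ubiquitin ligase subunit that marks hydroxylated HIF for destruction, went the other way, with 34.0, 34.6 and 24.6 CPM in KO and 29.2, 30.2 and 27.8 CPM in WT. KO replicates 1 and 2 were above and KO replicate 3 was below all WT libraries. Its log2 fold change was 0.09 (SE 0.144, edgeR adjusted p = 0.778), and without KO replicate 3 Vhl rose by 0.24 (SE 0.0636, edgeR adjusted p = 0.0262). HIF activity is set mainly at the level of protein, which these libraries do not measure.

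HIF binds the core letters ACGTG or GCGTG on either strand. In RefSeq promoter windows of GRCm38.p6, read over the 250 bases before each start site, 26 of the 30 members that had a window held at least 1 of these matches. By window the share was 74.5% of 47 member windows, where it was 38.6% of all 32851 windows, and at least 2 separate matches stood in 36.2% and 13.4%. The letters include a CG, and member windows held a median of 14 CG pairs, against 6 over all windows. Matches on the 2 strands can overlap, as in CACGTG, and touching or overlapping matches were counted as 1. The windows below show 3 members that fell without KO replicate 3 and hold matches (Pgk1 at chrX:106186850-106187099 on the plus strand, Bnip3 at chr7:138909507-138909756 on the minus strand, Pgam1 at chr19:41911621-41911870 on the plus strand), 1 that fell without a match in this window (Gpi1 at chr7:34230337-34230586 on the minus strand) and 1 that rose, Eno2, also without one (chr6:124769674-124769923 on the minus strand). They are written toward the start site, with matches in capitals:
Pgk1 promoter: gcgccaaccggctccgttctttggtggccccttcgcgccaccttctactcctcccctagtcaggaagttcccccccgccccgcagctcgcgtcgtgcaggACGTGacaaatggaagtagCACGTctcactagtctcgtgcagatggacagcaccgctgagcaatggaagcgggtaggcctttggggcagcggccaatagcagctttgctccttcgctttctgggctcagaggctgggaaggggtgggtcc
Bnip3 promoter: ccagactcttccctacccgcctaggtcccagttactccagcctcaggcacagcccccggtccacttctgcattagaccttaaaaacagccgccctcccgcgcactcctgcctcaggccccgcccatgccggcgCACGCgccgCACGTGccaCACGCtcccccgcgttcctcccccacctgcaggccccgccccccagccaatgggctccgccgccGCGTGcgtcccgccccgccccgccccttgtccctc
Pgam1 promoter: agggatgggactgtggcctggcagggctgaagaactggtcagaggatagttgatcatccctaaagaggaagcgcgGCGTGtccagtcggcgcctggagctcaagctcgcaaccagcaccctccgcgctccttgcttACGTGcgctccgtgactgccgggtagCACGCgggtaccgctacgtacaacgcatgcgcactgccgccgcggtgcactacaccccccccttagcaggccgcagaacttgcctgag
Gpi1 promoter: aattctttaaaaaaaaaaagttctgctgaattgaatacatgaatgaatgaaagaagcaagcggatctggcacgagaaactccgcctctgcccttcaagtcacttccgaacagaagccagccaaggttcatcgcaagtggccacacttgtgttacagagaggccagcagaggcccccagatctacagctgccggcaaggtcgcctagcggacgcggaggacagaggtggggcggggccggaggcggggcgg
Eno2 promoter: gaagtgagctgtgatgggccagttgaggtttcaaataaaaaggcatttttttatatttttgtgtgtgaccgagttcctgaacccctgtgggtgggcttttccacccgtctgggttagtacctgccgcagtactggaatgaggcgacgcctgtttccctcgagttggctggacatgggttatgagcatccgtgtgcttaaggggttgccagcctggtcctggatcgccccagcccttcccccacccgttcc

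In Pgk1 the pair of separate matches began 150 and 131 bases before the start site, and Bnip3 held 4, beginning 117, 108, 99 and 35 bases before it. Pgam1 held 3, beginning 175, 114 and 88 bases before its start site. The windows shown are examples, and other members go against a link between matches and falls. Tpi1, with a log2 fold change of -1.08 without KO replicate 3, held 0 matches in its window. Slc2a1, at -0.26 in that fit, held 2. Whether matches go with the falls was not tested. A match is a description of letters and not a binding site, and the absence of one in Gpi1, Eno2 and Tpi1 refers to these windows alone.

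Further genes of the same pathways were read from lists that hold none of the 32 members. Of 29 tested genes of glucose transport, further glycolytic isoenzymes and pyruvate use, 2 fell, 0 rose and 27 did not pass with all libraries, with a median log2 fold change of -0.17. Of all tested genes 1.63% fell and 0.884% rose in that fit. Slc2a4, the insulin-responsive glucose transporter GLUT4, was at 2.5, 3.18 and 1.73 CPM in KO, against 20.7, 8.32 and 17.1 CPM in WT, and fell by 2.64 (SE 0.407, edgeR adjusted p = 0.0369). Eno3, the muscle enolase, was at 14.0, 12.7 and 13.9 CPM in KO, against 30.9, 22.3 and 32.5 CPM in WT, and fell by 1.08 (SE 0.16, edgeR adjusted p = 0.0331). In both genes all KO libraries were below all WT libraries and KO replicate 3 was like the other KO libraries, unlike in most members. Leaving out KO replicate 1 or 2 or WT replicate 1 or 3 ended both calls, as it did for all genes, with edgeR adjusted p of 0.116 to 0.191 for Slc2a4 and 0.125 to 0.184 for Eno3. Without KO replicate 3, 12 fell and 1 rose, where 16.1% of all genes tested in that fit fell and 12.5% rose. The hexokinase Hk3 of blood cells and the muscle mutase Pgam2 fell most, with log2 fold changes of -5.13 and -3.05 (edgeR adjusted p = 0.000266 and 0.00363). Both rest on few counts. Hk3 had 2, 3 and 116 estimated counts in KO replicates 1 to 3, against 116, 65 and 105 in WT replicates 1 to 3. Pgam2 had 18, 13 and 64 in KO, against 167, 64 and 172 in WT. In the fit without KO replicate 3, Pdhb, a pyruvate dehydrogenase subunit gene, fell by 0.25. The mitochondrial pyruvate carrier genes Mpc1 and Mpc2 fell by 0.36 and 0.34, and the pentose phosphate enzyme G6pdx by 0.50. Pdha1 (-0.05) and Ldhb (0.20), the lactate dehydrogenase subunit of oxidative tissues, did not pass in that fit. These were named after their values were seen. Muscle, adipocyte and macrophage markers, whose sums are given with the marker lists, were also lower in KO replicates 1 and 2 than in any WT library, and their part in the levels of Slc2a4, Eno3, Pgam2 and Hk3 was not tested.

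Of 40 tested further hypoxia response genes, 1 rose, 1 fell and 38 did not pass with all libraries, with a median log2 fold change of -0.11. Of all tested genes 0.884% rose and 1.63% fell in that fit, so 1 gene in each direction is near the share of all genes. Vegfa, the angiogenic factor, was at 196, 204 and 212 CPM in KO, against 154, 142 and 153 CPM in WT, and rose by 0.45 (SE 0.0693, edgeR adjusted p = 0.0375). Loxl2, a collagen cross-linking oxidase, was at 195, 205 and 193 CPM in KO, against 318, 376 and 324 CPM in WT, and fell by 0.78 (SE 0.089, edgeR adjusted p = 0.019). In neither gene did KO replicate 3 stand apart from KO replicates 1 and 2. Both calls ended when KO replicate 1 or 2 or WT replicate 1 or 3 was left out, and that of Vegfa also without WT replicate 2, with edgeR adjusted p of 0.097 to 0.202 for Vegfa and 0.0989 to 0.121 for Loxl2. Without KO replicate 3, 22 of the 40 fell and 6 rose, with a median of -0.33. Of all genes tested in that fit 16.1% fell and 12.5% rose, so the 6 that rose are near the share of all genes. Those that fell include Fam162a (-1.16), Angptl4 (-1.23), the BNIP3 relative Bnip3l (-0.40) and the collagen prolyl hydroxylase subunits P4ha1 (-0.39) and P4ha2 (-0.80). In these KO replicate 3 was above KO replicates 1 and 2. Others that fell were lowest in KO replicate 3: Lox (69.3%, 74.4% and 23.3% of the WT mean in KO replicates 1 to 3), Plod2, Adm and Cited2. Of the 40, KO replicate 3 was above all WT libraries in 21 and below them in 11. Of all 13692 tested genes these were 5439 and 5429. Those that rose were Vegfa (0.42), Ero1l (0.41), the secreted glycoprotein gene Stc2 (0.57), Hmox1 (0.30), Ankzf1 (0.34) and Wsb1 (0.27). Ero1l, a disulfide oxidase of the endoplasmic reticulum, and Hmox1, a haem oxygenase, are also known to respond to other stresses. In KO replicate 3 Ero1l, Stc2 and Hmox1 were higher still, at 224%, 267% and 289% of the WT mean. Of 14 HIF pathway regulators 0 rose and 0 fell with all libraries (edgeR, 2 at an unadjusted p under 0.05, and 1 called higher by DESeq2), with Rack1 at 0.19 (edgeR adjusted p = 0.467) and Elob at -0.21 (edgeR adjusted p = 0.229) as the most abundant, and 4 rose and 1 fell without KO replicate 3.

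Markers of other cell types also differed between libraries. Beside the counts below, 1.63% of all tested genes fell and 0.884% rose with all libraries. Without KO replicate 3 these shares were 16.1% and 12.5%. The summed level of the 32 members was 9955, 9429 and 17294 CPM in KO replicates 1 to 3, against 15189, 16758 and 16545 CPM in WT replicates 1 to 3. The 16 skeletal muscle markers summed to 24.6, 23.5 and 329 CPM in KO and 1003, 129 and 889 CPM in WT, and 0 of the 15 tested passed in edgeR with all libraries (3 at an unadjusted p under 0.05), whereas 15 fell without KO replicate 3. The 12 macrophage markers summed to 16.8, 16.5 and 150 CPM in KO and 371, 205 and 373 CPM in WT, and 2 of the 12 fell with all libraries and 12 without KO replicate 3. In both lists KO replicate 3 was thus above KO replicates 1 and 2, as in most members. The 12 adipocyte markers summed to 49.98, 48.1 and 53.1 CPM in KO and 1041, 508 and 909 CPM in WT, with Lep at 0 in all KO libraries and Cidec at 0 in KO replicates 2 and 3, and all 10 that were tested fell with all libraries and 12 without KO replicate 3. KO replicate 3 did not stand apart there.

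The 8 proliferation genes summed to 293, 297 and 987 CPM in KO replicates 1 to 3, against 625, 596 and 626 CPM in WT replicates 1 to 3. In this sum, as in Ldha and Pgk1, KO replicates 1 and 2 were below and KO replicate 3 above all WT libraries. Of these 8, 0 passed with all libraries (edgeR, 0 at an unadjusted p under 0.05), and 7 fell without KO replicate 3. Hypertrophic chondrocyte markers (8 genes) summed to 526, 528 and 1057 CPM in KO and 1261, 1190 and 1279 CPM in WT, and 3 of the 7 tested fell with all libraries and 5 without KO replicate 3. Most of this sum was Spp1, at 337, 334 and 826 CPM in KO and 782, 688 and 820 CPM in WT. In Col10a1, Mmp13, Ibsp, Alpl and Pth1r all KO libraries, KO replicate 3 included, were below all WT libraries, where 14.5% of all tested genes were. In Runx2 and Ihh the groups overlapped. Fibroblast and tendon markers (10 genes) summed to 25805, 26475 and 7319 CPM in KO and 28102, 21998 and 26730 CPM in WT, so that KO replicate 3 was far below all other libraries. Of the 10, 0 passed with all libraries (edgeR, 0 at an unadjusted p under 0.05), while 3 rose and 3 fell without KO replicate 3. The 15 chondrocyte markers lay between 41389 and 42923 CPM in KO and between 37355 and 50206 CPM in WT. Of these, 2 rose with all libraries, Col9a2 (1.05, edgeR adjusted p = 0.0496) and Col11a2 (0.79, edgeR adjusted p = 0.0466), and 4 rose without KO replicate 3, where 0 fell in either fit. Endothelial markers (8 genes) summed to 7.01, 8.01 and 16 CPM in KO and 14.7, 8.6 and 13.3 CPM in WT, with 0 of the 7 tested called with all libraries (edgeR, 0 at an unadjusted p under 0.05) and 4 lower without KO replicate 3. Most of this sum in KO replicates 1 and 2 was Tek, at 5.43, 6.03 and 1.04 CPM in KO and 4.42, 4.03 and 4.95 CPM in WT. In Pecam1, Cdh5, Kdr, Tie1 and Emcn KO replicates 1 and 2 were below all WT libraries and KO replicate 3 was within or above their range, where 15.3% of all tested genes did so. In Vwf and Esam KO replicate 2 was within the WT range. The 5 erythroid markers in the table summed to under 1 CPM in every library.

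Among WT libraries the muscle, macrophage and adipocyte sums were lowest in WT replicate 2, though well above those of KO replicates 1 and 2. The members in WT replicate 2 were at 0.746 to 1.45 times the mean of WT replicates 1 and 3, with a median of 1.04 times. The part of the marker lists and of the proliferation genes in the members' levels was not tested.

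**Figure D4:**
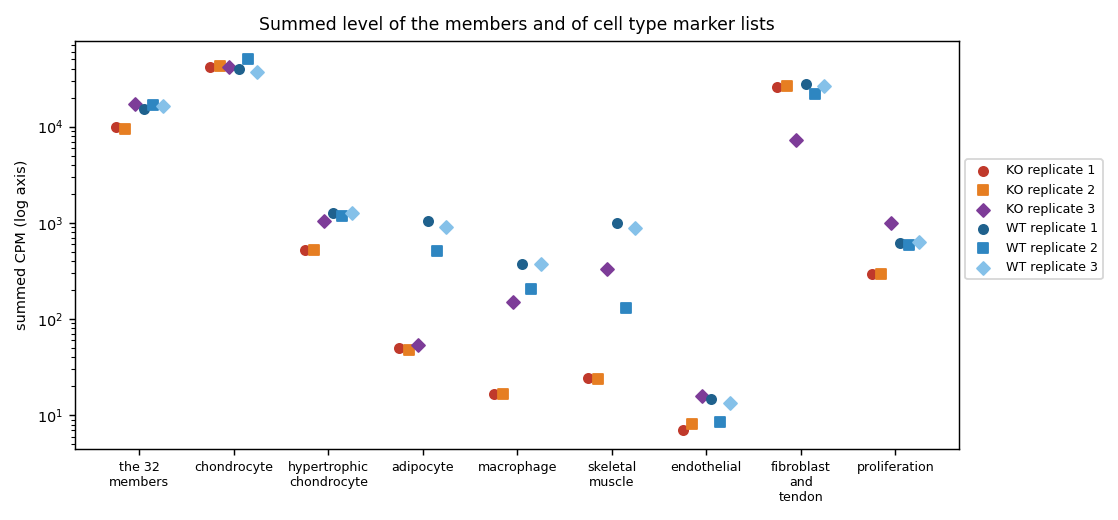
Summed CPM (y axis, log scale) of the 32 members and of 8 marker lists in each library, KO libraries in red, orange and purple and WT libraries in blue. The members, muscle, macrophage, hypertrophic and proliferation lists are lowest in KO replicates 1 and 2. So are the adipocyte list, with KO replicate 3 close by at 53.1 CPM, and the endothelial list, with WT replicate 2 close by at 8.6 CPM. The fibroblast and tendon list is lowest in KO replicate 3 at 7319 CPM.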

How the data were processed

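The deposited gene and transcript files give estimated counts, TPM and FPKM per library under Entrez or RefSeq identifiers. TPM values were scaled by the authors for length and depth and served to compare levels between genes; the deposited FPKM values were not used. Per the labels' protocols, STAR 2.7.5a, the mm10 build, GENCODE vM25, featureCounts 2.0.0 and DESeq2 1.28.1 were used, but 12.9% of the deposited estimated counts are not whole numbers, so the counter of these tables is not given in the sources used here, nor is its strand setting. Reads shared with near-identical copies may have been split. Estimated counts were not whole for 7 members (Gpi1, Pfkm, Pfkp, Gapdh, Eno1, Slc16a3 and Pdk1), and these and other genes with processed copies are uncertain to that extent.

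Libraries were grouped by their titles. The series design reads as RNA taken right after the sort, the growth protocol as RNA from cultured cells. Estimated counts were rounded, filtered with filterByExpr (at least 10 counts, at least 15 in total), normalized by TMM and tested two-sided, KO against WT, with the edgeR quasi-likelihood method and no covariates, in R 4.3.3 with edgeR 4.0.16. The adjusted p threshold was 0.05 over all 13692 genes tested. CPM values use the same scaled library sizes. The standard error is the log2 fold change over the square root of F. Rose and fell mean a pass in the fit named. With 3 libraries a group, precision is limited by the spread between libraries more than by counting. Alternatives were DESeq2 1.42.0, limma 3.58.1 (voom), other scalings and filters, the replicate number as a block, and each library left out. Members, lists and settings were chosen with earlier results of these data known. Full values are given for the 8 most abundant members, the 4 largest estimates in each direction and the oxygen-sensing genes, and from other lists for called genes or the 2 most abundant; others named were chosen after their values were seen. The test script was tested on simulated data. Promoter sequences are from RefSeq (GRCm38.p6) and exon sequences from GENCODE vM21 (GRCm38), the build that mm10 stands for.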

Additional observations from a re-analysis of the deposited data

How the results depend on the processing

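The statements about the members depend on KO replicate 3 above all. Leaving out 1 library at a time gave 0 to 3962 called genes (344 with all 6), 0 to 2 members called higher and 0 to 25 called lower. No gene was called without KO replicate 1, KO replicate 2, WT replicate 1 or WT replicate 3, and 176 were without WT replicate 2. Of these 6 fits, members were called only in that without KO replicate 3. Further glycolysis genes had 0 to 1 higher and 0 to 12 lower, further hypoxia genes 0 to 6 and 0 to 22, and HIF regulators 0 to 4 and 0 to 1. With KO replicate 3 and WT replicate 2 both left out, 5416 of 13804 tested genes were called, 2416 higher and 3000 lower. In that fit 2 members were higher and 27 lower. Higher and lower were 5 and 13 of 29 further glycolysis genes, 8 and 24 of 40 further hypoxia genes, and 4 and 1 of 14 HIF regulators. DESeq2 called 1171 genes, 2 members lower, 6 further glycolysis genes lower, 4 further hypoxia genes higher and 3 lower, and 1 HIF regulator higher; limma-voom called 1 further glycolysis gene lower. With the replicate number as a block 5 genes were called, and 0 members, 0 further glycolysis genes and 0 further hypoxia genes. Same-numbered libraries deviated together at correlations of -0.14, 0.21 and 0.24, and 3 of 6 libraries correlated best with their own number, so the numbers are not taken to pair the libraries. The cause of these differences was not tested. Fold changes turned sign with both libraries left out for Slc2a1 (-0.24), Hk2 (-0.32), Pfkm (0.018), Pfkp (-0.24) and Kdm3a (-0.17), and with library size only for Car9 (0.018). With 1 library left out they ran from -0.26 to 0.73 for Slc2a1, -0.33 to 0.024 for Hk1, -0.37 to 0.44 for Hk2, -0.37 to 0.0095 for Gpi1, -0.17 to 5.85e-06 for Pfkm, -0.26 to 0.42 for Pfkp, -0.51 to 0.21 for Car9, -0.41 to 0.063 for Egln1, -1.08 to 0.21 for Egln3, -0.19 to 0.058 for Epas1 and -0.16 to 0.20 for Kdm3a. By estimated counts in place of TPM, the KO minus WT difference in the Eno2 share of enolase was 1.40 percentage points, against 0.92. Ankrd37, at most 42 counts a library, is limited by depth.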
